A study of Mus musculus with 3 samples.

Results

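The genes described here encode extracellular matrix proteins, the proteases that cut them, and serpins with a tissue inhibitor of metalloproteinases, measured in CH12 cells, a mouse B lymphoma line. They were chosen by name: protein-coding rows for collagen chains, laminins, fibulins, thrombospondins, latent TGF-beta binding proteins (LTBPs), ADAM and ADAMTS proteins, matrix metalloproteinases (MMPs), their tissue inhibitors (TIMPs) and serpins. Of 212 rows with such names, 52 had at least 30 read counts in at least 1 library and are the members, out of 11138 protein-coding genes past the same limit and 20668 protein-coding rows in all. The choice used the counts of all 3 libraries, so that a low gene could enter through its highest library alone. Another 160 matching rows stayed under 30 counts in every library, 69 of them at 0 counts in all 3. At the limit, Adamts13, Col1a1 and Col20a1 lay just inside with 31 counts in their highest library, and Col18a1, Adam4 and Adam22 lay just outside with 29, 28.64 and 27. The row Col4a3bp matched by spelling alone: it is Cert1 in RefSeq, a ceramide transfer protein and no collagen.

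Messenger RNA was sequenced from 3 samples: CH12 cells labelled control, cells treated with TGFb at 5 ng/ml for 6 h, and cells treated with TGFb at 5 ng/ml for 24 h. There was 1 library per group, so no error between cultures could be estimated, no test was run, and every comparison is between 3 single libraries. All 3 come from 1 established line, and no time in culture is given for the control, so that treatment and time in culture cannot be told apart. The control library summed to 51386081 counts, the 6 h library to 64229801 and the 24 h library to 27487221. CPM stands for counts scaled to the normalized library size, and 30 counts are worth 0.617 CPM in control, 0.466 CPM after 6 h and 1.03 CPM after 24 h. The 8 B cell markers examined were all measured, with levels that sum to 1525, 1387 and 1617 CPM in control, 6 h and 24 h. Only Cd22 among them passed the size rule given below, and was lower at 139.2, 37.0 and 15.6 CPM.

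TGF-beta is secreted in a latent complex, held by LTBPs to fibrillin and other matrix fibres, and is set free by proteases, integrins or force. In many mesenchymal cells it raises collagens, fibronectin, some protease inhibitors and some proteases, and it lowers others. B cells make little matrix of their own, but they use membrane ADAM proteases to shed surface receptors and carry intracellular serpins against granzymes and cathepsins.

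Differences were read by size. A gene is called higher or lower where CPM differed at least 2-fold and the larger value reached both 1 CPM and 30 counts. Values in brackets after a fold are its exact 95% Clopper-Pearson interval, which reflects counting error alone and treats reads as independent molecules although none carried a molecular identifier. Where 3 values follow a gene, they are in the order control, 6 h, 24 h.

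After 24 h of TGFb, 14 of the 52 members were higher than in control (26.9%, against 7.15% of all 11138 genes) and 3 were lower (5.77%, against 1.95%). After 6 h, 5 were higher (9.62%, against 2.32% of all genes) and 2 were lower (3.85%, against 0.35%). The 5 genes higher at both times were Adamtsl2, Col15a1, Ltbp1, Lama5 and Adamts7, and the 2 lower at both times were the intracellular serpins Serpinb6b and Serpinb8. The comparisons with control share that library. The members' median log2 ratio was 0.20 at 6 h and 0.45 at 24 h, beside 0.00 and -0.01 for all genes. Levels lay above control at both times for 36 members, below it at both times for 9, and on opposite sides for 7. Taking each time alone, 71.2% of members lay above control at 6 h and 80.8% at 24 h, beside 50.0% and 49.5% of all genes. These shares include the members under 30 counts in control that are described next. Of the 52 members, 34 passed the size rule in no comparison.

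Some counts were fixed by the limit itself, since a member under 30 counts in control could enter only through a treated library. There were 8 such members, 4 of them higher at 24 h. Among the 44 members with 30 counts in control, 10 were higher at 24 h (5.98% of the 10728 genes with 30 counts in control were) and 4 were higher at 6 h (1.91% of them), and the median log2 ratio was 0.12 at 6 h and 0.29 at 24 h. For the 3102 genes at least as long as the members' median length, taken up below, the medians were 0.16 and 0.26. Those 44 include every member that was lower, 2 at 6 h (0.364% of the 10728 genes) and 3 at 24 h (2.02%). With a minimum of 5 CPM in the larger value, 5 members were higher at 6 h (1.37% of all genes) and 8 at 24 h (4.51%), and 1 was lower at each time (0.198% and 1.56%).

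**Figure D1:**
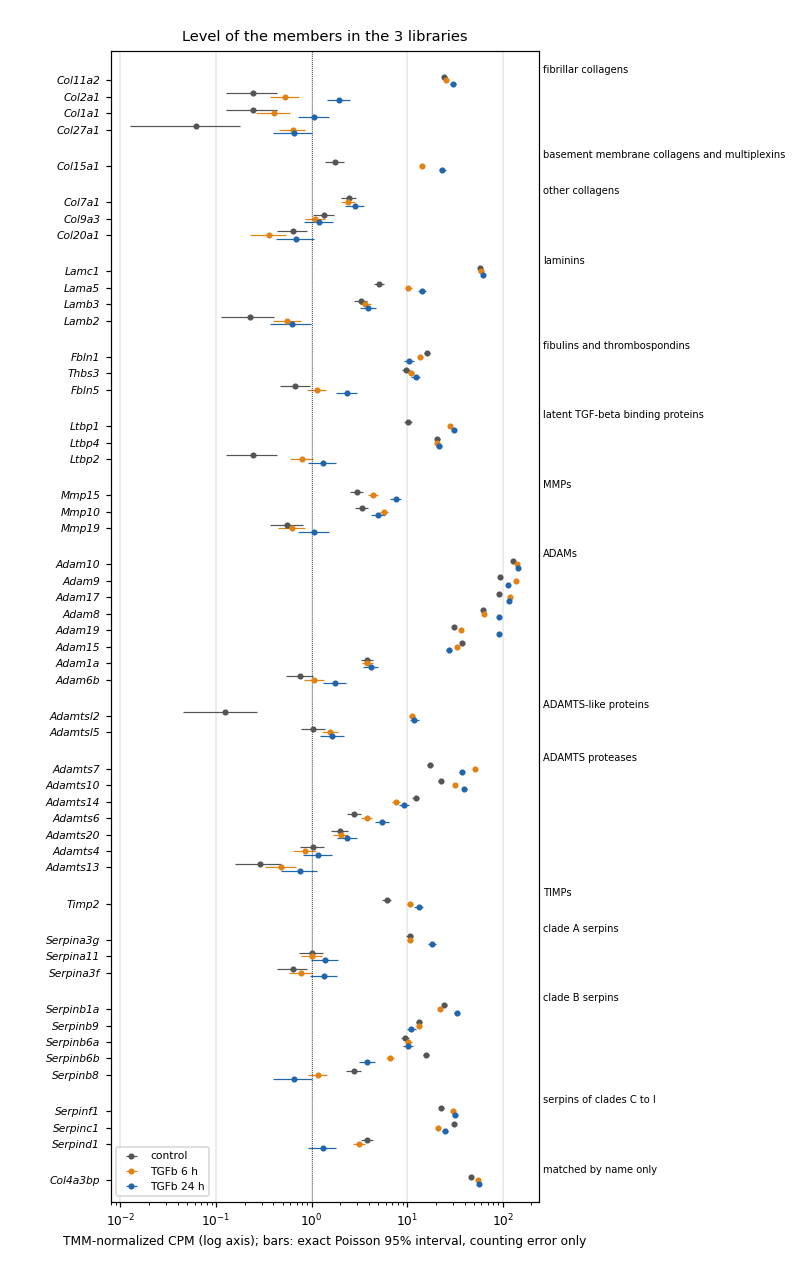
Normalized CPM (log axis) of the members, less 1 that is not reported here, grouped by role, with 1 point per library for control, 6 h and 24 h of TGFb and bars for the exact Poisson 95% interval (counting error only); the dotted line marks 1 CPM. Adamtsl2 moves from 0.123 CPM in control to 11.4 and 11.9 CPM, Serpinb6b from 15.7 CPM to 6.70 and 3.79 CPM, and the membrane proteases Adam9, Adam10 and Adam17 are the members with the highest CPM.

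Proteins of the matrix itself made up 20 members, of which 4 were higher at 6 h (2.32% of all genes were) and 8 at 24 h (7.15%), with none lower. Of these 20, 6 (Adamtsl2, Col1a1, Col2a1, Col27a1, Lamb2 and Ltbp2) had under 30 counts in control and entered only through a treated library. They hold 1 of the 4 higher at 6 h and 4 of the 8 higher at 24 h. The other 14 held 3 and 4 that were higher, beside 1.91% and 5.98% of genes with 30 counts in control, and their median log2 ratio was 0.11 at 6 h and 0.28 at 24 h. Those medians lie near the 0.16 and 0.26 of the 3102 genes at least as long as the members' median length. The largest difference was in Adamtsl2, which encodes a secreted ADAMTS-like glycoprotein that lacks a protease domain and binds fibrillin and LTBP1. Its gene lies at chr2:27079336-27108981 (GRCm38.p6, plus strand). It had 6, 730 and 344 counts in the 3 libraries, or 0.123, 11.4 and 11.9 CPM. The ratio to control was 91.9-fold (42.0 to 251.3) at 6 h and 96.04-fold (43.7 to 263.5) at 24 h, and 1.04-fold (0.916 to 1.19) between the treated libraries. The level was thus near 0 in control and high in both treated libraries, and the interval of the ratio between those 2 includes 1. The other measured ADAMTS-like gene, Adamtsl5, stood at 1.05, 1.57 and 1.65 CPM and passed the rule at neither time.

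Col15a1, at chr4:47207655-47313167 on the plus strand, encodes a multiplexin, a proteoglycan collagen of basement membrane zones. It had 85, 910 and 680 counts in control, 6 h and 24 h, or 1.75, 14.2 and 23.4 CPM. It was 8.09-fold higher at 6 h (6.47 to 10.2) and 13.4-fold higher at 24 h (10.7 to 17.0). The 24 h level was above the 6 h level by 1.66-fold (1.498 to 1.83). It was the only member among the 8 matching rows for basement membrane collagens and multiplexins, and Col18a1, the other multiplexin, stayed at 13, 29 and 12 counts.

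The LTBPs anchor latent TGF-beta in the matrix or organise microfibrils, and 3 of the 4 rows were members. Ltbp1, at chr17:75005480-75392512 on the plus strand, stood at 10.2, 27.9 and 30.7 CPM. It was 2.74-fold higher at 6 h (2.48 to 3.03) and 3.01-fold higher at 24 h (2.70 to 3.37). Ltbp2, which binds fibrillin and not latent TGF-beta, had 12, 51 and 38 counts and was 5.30-fold higher at 24 h (2.71 to 11.2), while at 6 h it was under 1 CPM. Ltbp4 stood at 20.7, 20.4 and 21.6 CPM, a ratio to control of 0.987 at 6 h and 1.04 at 24 h. Ltbp3, which is no member, had 11, 16 and 6 counts. The family was uneven, with Ltbp1 and Ltbp2 higher at 24 h and Ltbp4 near its control level.

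The promoter windows of the genes with the largest differences are printed here, so that the letters can be read beside the values. They are RefSeq windows of GRCm38.p6, each with 250 bases before and 50 bases after a transcript start, written 5′ to 3′ on the gene's own strand. Capitals mark matches to the motifs described further on, and a window in lower case throughout holds none. They cover chr2:27079129-27079428 for Adamtsl2, chr4:47207762-47208061 for Col15a1, chr17:75178531-75178830 for Ltbp1 (the start inside the gene, of 2 windows), chr13:32965011-32965310 for Serpinb6b and chr1:107589756-107590055 for Serpinb8, all on the plus strand. The windows of Serpinb6b and Col15a1 also lie within the gene's span, and so leave out the sequence before its first base.
Adamtsl2: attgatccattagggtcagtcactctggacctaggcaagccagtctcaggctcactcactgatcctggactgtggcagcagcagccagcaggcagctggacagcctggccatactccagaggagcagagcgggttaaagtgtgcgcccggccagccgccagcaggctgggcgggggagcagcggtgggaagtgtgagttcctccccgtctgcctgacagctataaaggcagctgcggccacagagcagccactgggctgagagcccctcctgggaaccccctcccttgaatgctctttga
Col15a1: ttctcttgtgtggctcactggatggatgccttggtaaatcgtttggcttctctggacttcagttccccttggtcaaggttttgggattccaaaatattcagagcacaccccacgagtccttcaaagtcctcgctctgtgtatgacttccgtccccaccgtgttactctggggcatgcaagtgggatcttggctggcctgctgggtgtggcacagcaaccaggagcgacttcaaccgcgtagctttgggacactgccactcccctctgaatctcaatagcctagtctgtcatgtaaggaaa
Ltbp1: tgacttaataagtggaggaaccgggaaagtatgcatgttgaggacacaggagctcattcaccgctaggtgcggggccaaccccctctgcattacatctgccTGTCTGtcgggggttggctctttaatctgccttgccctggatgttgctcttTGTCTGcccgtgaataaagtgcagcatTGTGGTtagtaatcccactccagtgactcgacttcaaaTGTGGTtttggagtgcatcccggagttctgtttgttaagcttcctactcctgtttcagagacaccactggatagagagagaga
Serpinb6b: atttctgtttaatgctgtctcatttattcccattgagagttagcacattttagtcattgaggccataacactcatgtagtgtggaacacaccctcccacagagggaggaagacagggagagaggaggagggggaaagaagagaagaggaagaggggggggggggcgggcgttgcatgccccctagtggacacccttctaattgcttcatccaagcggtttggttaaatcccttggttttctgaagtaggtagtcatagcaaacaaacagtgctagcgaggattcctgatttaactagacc
Serpinb8: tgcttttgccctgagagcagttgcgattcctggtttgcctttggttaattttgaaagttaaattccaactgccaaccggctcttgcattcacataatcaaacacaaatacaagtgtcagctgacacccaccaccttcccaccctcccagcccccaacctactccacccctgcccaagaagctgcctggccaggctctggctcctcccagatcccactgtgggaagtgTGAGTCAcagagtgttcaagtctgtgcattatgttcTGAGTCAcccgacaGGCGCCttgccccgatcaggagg

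Laminins are cross-shaped trimers of basement membranes, and 4 of 11 rows were members. Lama5, the alpha 5 chain, at chr2:180176373-180225904 on the minus strand, stood at 5.10, 10.3 and 14.3 CPM and was 2.02-fold higher at 6 h (1.75 to 2.35) and 2.80-fold higher at 24 h (2.39 to 3.29). Lamc1, the gamma chain that partners it, stood at 58.3, 58.9 and 62.2 CPM, and the beta chain Lamb2 had 11, 36 and 18 counts and reached 1 CPM in no library. Lamb3 stood at 3.27, 3.65 and 3.93 CPM. Lama5 alone of the 4 passed the rule. Its log2 ratio at 6 h was 0.997 on DESeq2 size factors, just short of the limit, and with the trend of the ratios on transcript length removed its log2 ratio was 0.69 at 6 h and 0.89 at 24 h, under the 2-fold limit.

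Fibrillar collagens were at or near the limit of measurement apart from Col11a2, a cartilage-type chain, which stood at 24.6, 25.8 and 30.3 CPM. Col2a1 had 12, 34 and 56 counts and was 7.82-fold higher at 24 h (4.14 to 16.02). Col1a1 had 12, 26 and 31 counts, or 0.247, 0.404 and 1.07 CPM, and was 4.33-fold higher at 24 h (2.16 to 9.25). Col27a1 had 3, 41 and 19 counts, ratios of 10.3 (3.29 to 52.1) and 10.6, but it reached 1 CPM in no library and does not count as higher. The last 3 had too few counts in control to enter other than through a treated library, so that their side of control was largely fixed by the count limit, and Col11a2 did not pass the rule. Among the other collagens, Col7a1 of anchoring fibrils stood at 2.47, 2.43 and 2.83 CPM, Col9a3 at 1.34, 1.09 and 1.21 CPM, and Col20a1 at 31, 23 and 20 counts, with no member past the rule. Fibulins and thrombospondins gave 3 members. Fbln5, needed for elastic fibre assembly, had 33, 73 and 68 counts and was 3.45-fold higher at 24 h (2.25 to 5.40). Fbln1 stood at 16.2, 13.8 and 10.4 CPM and Thbs3 at 9.77, 10.9 and 12.3 CPM, and neither passed the rule. Thbs1, which activates latent TGF-beta and is no member, had 1, 0 and 1 counts. With levels taken from the deposited TPM (an abundance per transcript length), Col1a1, Col2a1, Fbln5 and Ltbp2 had larger ratios at 24 h but stayed under the minimum of 1, and so were not counted.

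**Figure D2:**
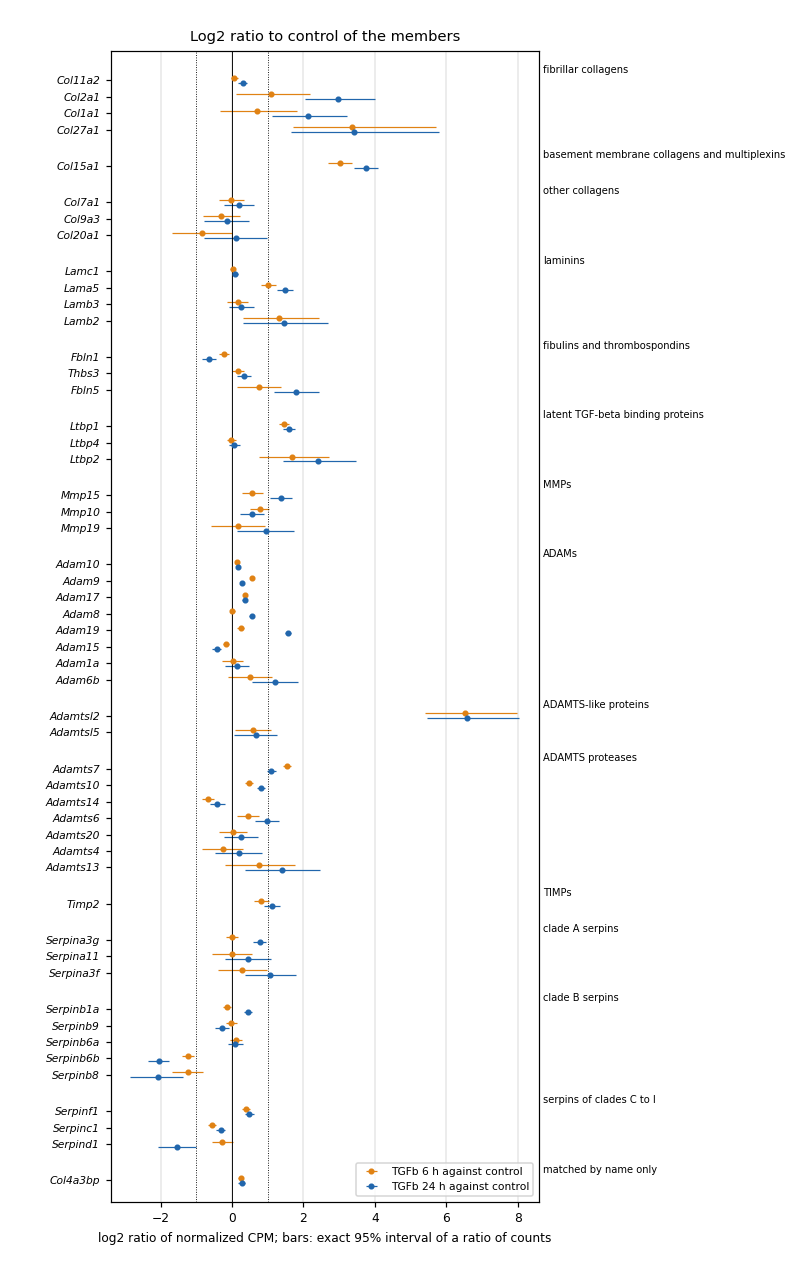
Log2 ratio to control of the same members at 6 h and 24 h, grouped by role, with bars for the exact 95% interval of a ratio of counts (counting error only). Adamtsl2, Col15a1 and the low-count Col27a1 stand far to the right, as does the low-count Col2a1 at 24 h. Serpinb6b, Serpinb8 and, at 24 h, Serpind1 stand to the left, and most ADAM proteases lie near 0.

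Proteases, classed by gene name, made up 18 members, of which 1 was higher at 6 h (2.32% of all genes were) and 4 at 24 h (7.15%). The 4 include Adam6b, a sperm membrane protein gene with shared reads, whose value is uncertain. None was lower, beside 0.35% and 1.95% of all genes. Over the 16 with 30 counts in control, which include all of those higher, the median log2 ratio was 0.31 at 6 h and 0.45 at 24 h. The same 3102 long genes had medians of 0.16 and 0.26. Per transcript length the membrane ADAMs were the most abundant members: in control Adam10 stood at 42.7 TPM, Adam9 at 36.0, Adam17 at 31.7 and Adam8 at 31.5. The 8 ADAM members summed to 172.1 of the 373.1 TPM of all members in control and to 263.2 of 562.1 TPM at 24 h. Adam10, which sheds Notch receptors and CD23, stood at 128.1, 140.5 and 144.1 CPM. Adam17, which sheds TNF, stood at 91.3, 118.4 and 116.6 CPM, and Adam9 at 94.2, 138.4 and 114.5 CPM. None of these 3 passed the rule at either time.

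Adam19 was higher at 24 h. It encodes a sheddase of neuregulins at chr11:46054502-46147347 on the plus strand, and it stood at 31.2, 36.9 and 92.2 CPM. It was 1.18-fold above control at 6 h and 2.96-fold higher at 24 h (2.78 to 3.15). The treated libraries were 2.50-fold apart (2.37 to 2.65), so that most of the difference lay between them. Adam8, a leukocyte protease, had the same order on a smaller scale at 62.8, 63.1 and 91.8 CPM, and Adam15 stood lower at each time at 37.2, 33.0 and 27.5 CPM, with neither past the rule. Adam6b, a sperm membrane protein gene that lies within the immunoglobulin heavy chain locus, had 37, 69 and 51 counts and was 2.31-fold higher at 24 h (1.48 to 3.63). Its expected count was not whole, which marks reads shared with another gene, so its value is uncertain. The same holds for Adam1a, another sperm protein gene, at 3.81, 3.84 and 4.17 CPM.

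Of the secreted ADAMTS proteases, 7 of 19 rows were members. Adamts7, which cleaves the cartilage matrix protein COMP, lies at chr9:90162904-90200102 on the plus strand and stood at 17.3, 50.7 and 37.2 CPM. It was 2.93-fold higher at 6 h (2.71 to 3.16) and 2.14-fold higher at 24 h (1.96 to 2.35), and it was highest at 6 h, with 24 h at 0.733 of that level (0.684 to 0.785). With the length trend removed its log2 ratio at 24 h was 0.87, under the limit. Its exons share 122 bases with those of Tbc1d2b on the opposite strand, which stood at 3.31, 5.22 and 6.38 CPM, and whether counting used strand is not stated in the sources at hand. Adamts10, which acts on fibrillin microfibrils, stood at 22.6, 31.3 and 39.5 CPM, and Adamts6 at 2.78, 3.79 and 5.48 CPM, ratios of 1.75 and 1.97 at 24 h that stay under the limit. Adamts14, a procollagen N-proteinase, stood at 12.3, 7.70 and 9.27 CPM. Adamts4, Adamts13 and Adamts20 lay between 0.288 and 2.38 CPM.

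MMPs were sparse, with 3 members of 22 rows. Mmp15, a membrane-anchored MMP, stood at 2.96, 4.40 and 7.65 CPM and was 2.58-fold higher at 24 h (2.08 to 3.21). Mmp10, a stromelysin, stood at 3.37, 5.75 and 4.96 CPM, and Mmp19 at 0.556, 0.622 and 1.07 CPM, with reads shared with other genes in both. The gelatinase gene Mmp9 had 5, 5 and 3 counts and the membrane MMP gene Mmp14 had 9, 6 and 1, so neither is a member.

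Serpins and Timp2 made up 13 members, all with 30 counts in control. At 6 h, 2 were lower (0.35% of all genes were) and none was higher (2.32%). At 24 h, 3 were lower (1.95%) and 2 were higher (7.15%). Their median log2 ratio was -0.00 at 6 h and 0.10 at 24 h. Serpinb6b, an intracellular clade B serpin at chr13:32956811-32979067 on the plus strand, had 761, 431 and 110 counts, or 15.7, 6.70 and 3.79 CPM. It was 2.34-fold lower at 6 h (2.07 to 2.64) and 4.13-fold lower at 24 h (3.38 to 5.09). Serpinb8, an intracellular serpin whose human relative inhibits furin, lies at chr1:107589926-107608978 on the plus strand and had 134, 75 and 19 counts. It was 2.37-fold lower at 6 h (1.77 to 3.18) and 4.21-fold lower at 24 h (2.59 to 7.21). The pair thus stood at similar ratios at each time, on different chromosomes. Furin itself, named here after its values were seen, stood at 112.5, 236.3 and 277.6 CPM and was 2.10-fold and 2.47-fold higher.

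The other 3 clade B members did not pass the rule at either time. Serpinb6a, the closest namesake of Serpinb6b, stood at 9.55, 10.3 and 10.2 CPM, and Serpinb9, an inhibitor of granzyme B, at 13.4, 13.2 and 11.1 CPM. Serpinb1a, an inhibitor of neutrophil proteases, stood at 24.4, 22.2 and 33.3 CPM and has shared reads. Serpinb9 and Serpinb1a are the measured genes on either side of Serpinb6b on chromosome 13, at 17994 and 103605 bases, and neither passed the rule.

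Among serpins of the blood clotting system, Serpind1 (heparin cofactor II, a thrombin inhibitor, at chr16:17331371-17343574) had 184, 202 and 38 counts, or 3.79, 3.14 and 1.31 CPM. It was 2.89-fold lower at 24 h (2.03 to 4.22) and did not pass the rule at 6 h. Serpinc1, antithrombin, stood at 31.1, 21.0 and 24.99 CPM. Over the merged exons of its annotated transcripts, 2942 of 5045 bases overlap exons of Zbtb37 on the opposite strand. The effective length used in counting was 1991 bases, so the overlap within the counted transcript is not known. Serpinf1, which encodes the non-inhibitory serpin PEDF, stood at 22.8, 29.99 and 31.8 CPM. In clade A, Serpina3g, an inhibitor of cathepsins in lymphocytes, stood at 10.7, 10.7 and 18.2 CPM, a ratio of 1.71 at 24 h, and its neighbour Serpina3f had 31, 50 and 39 counts and was 2.11-fold higher at 24 h (1.28 to 3.49). Both have shared reads, so that their counts cannot be fully separated from near copies. Serpina9, a germinal centre serpin, had 13, 15 and 1 counts, and the collagen chaperone Serpinh1 had 0, 3 and 2. Timp2 was the only TIMP measured, at 6.09, 10.8 and 13.2 CPM, and was 2.17-fold higher at 24 h (1.86 to 2.53) after 1.77-fold at 6 h, while Timp1 had 3, 8 and 2 counts.

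**Figure D3:**
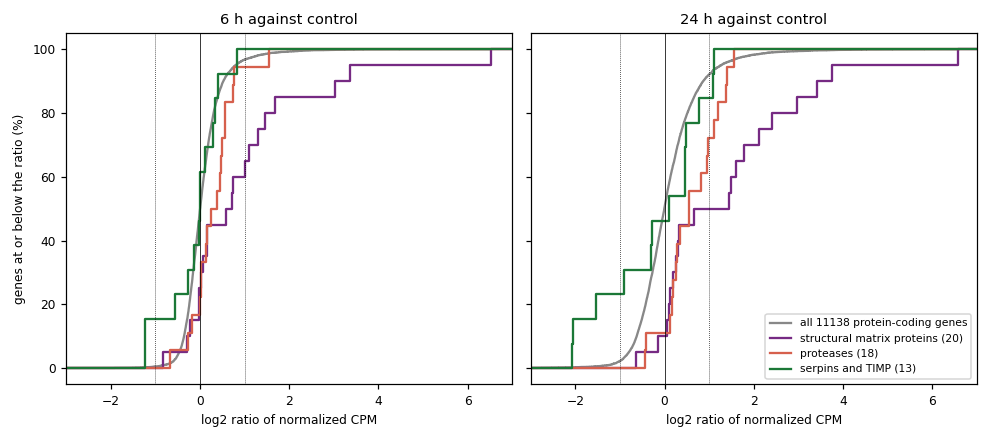
Cumulative share of genes (%) by log2 ratio at 6 h and 24 h against control, for matrix proteins, proteases, serpins with Timp2, and all protein-coding genes with 30 counts in a library; dotted lines mark 2-fold. The curve of the 20 matrix proteins includes 6 that entered only through a treated library, without which its median at 24 h is 0.28, and that of the 13 serpins and Timp2 crosses the curve of all genes, with a median of 0.10.

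Between 6 h and 24 h of TGFb, 4 members were higher at 24 h (7.69%, against 1.8% of all genes) and 2 were lower (3.85%, against 0.359%). Those higher were Adam19, Fbln5 (2.07-fold, 1.46 to 2.91), Col2a1 (3.65-fold, 2.34 to 5.77) and Col1a1 (2.64-fold, 1.52 to 4.64). Col1a1, with 26 counts at 6 h and 31 at 24 h, entered only through the 24 h library. Its direction here was thus largely fixed by the count limit. Serpind1 was among those lower, by 2.40-fold (1.69 to 3.49). On deposited TPM the counts were 1 (1.8% of all genes) and 1 (0.26%), near the share of all genes for those higher, and with a minimum of 5 CPM they were 1 (0.79% of all genes) and 0 (0.153%). The members' time courses therefore took several shapes. Adamtsl2 and Ltbp1 were near their 24 h level at 6 h, Col15a1, Lama5 and Mmp15 were intermediate at 6 h, Adam19 moved between 6 h and 24 h, and Adamts7 was highest at 6 h.

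Ratios to control followed transcript length over the whole series, and the members are long. The median effective length was 3856 bases for members and 2660 bases for all genes. Across all 11138 genes Spearman's rho between length and log2 ratio was 0.38 at 6 h and 0.37 at 24 h, a description of genes that share the same 3 libraries. Among the 3102 genes at least as long as the members' median, 3.32% were higher at 6 h and 10.2% at 24 h. Only 0.258% and 0.838% of them were lower. Their median log2 ratio was 0.16 at 6 h and 0.26 at 24 h. The 26 longer members held 4 of the genes higher at 6 h and 10 of those higher at 24 h, and none that was lower. The 26 shorter members held 1 and 4 that were higher and every member that was lower. Of those higher, Col1a1, Col2a1 and Ltbp2 among the longer and Adamtsl2 among the shorter had under 30 counts in control. They entered only through a treated library, so that their side of control was largely fixed by the count limit. They also remain in the counts with the length trend removed. Shares among all genes shorter than the members' median were not computed. With the length trend of all genes removed, 4 members were higher at 6 h (2.19% of all genes) and 12 at 24 h (6.45%), and the lower ones numbered 2 (0.35%) and 3 (1.6%). Adamtsl2, Col15a1, Ltbp1, Adam19 and Serpinb6b passed the rule with and without that correction at each time at which they are called.

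**Figure D4:**
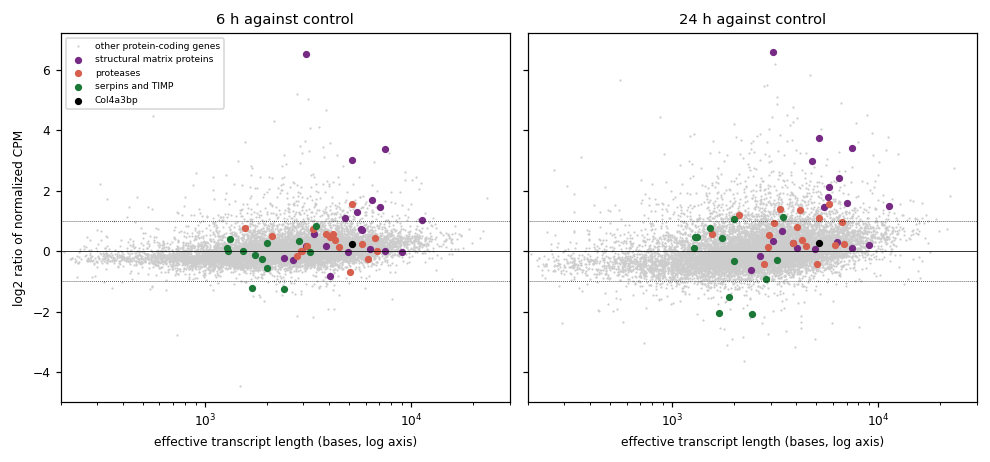
Log2 ratio of normalized CPM against effective transcript length (bases, log axis) at 6 h and 24 h, for all 11138 genes and the 52 members. Ratios drift upward with length, with rho of 0.38 and 0.37 across all genes, and Adamtsl2, Col15a1 and the low-count Col27a1 lie far above the drift.

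Most genes next to the members that were higher or lower did not pass the rule themselves, which also holds for most of all genes. The 17 members that passed against control have 34 measured neighbours. Of these, 4 were higher at 24 h (7.15% of all genes were), none was lower (1.95%) and 30 did not pass the rule. The exceptions, named after their values were seen, lie beside Adamtsl2, Col15a1, Ltbp1 and Timp2. Tgfbr1, the type I TGF-beta receptor, starts 40055 bases after Col15a1 ends, and stood at 40.9, 225.4 and 295.0 CPM, or 5.51-fold (5.26 to 5.78) and 7.21-fold (6.87 to 7.58) higher. Slc2a6, a glucose transporter family gene, lies 51336 bases before Adamtsl2 and stood at 34.7, 64.8 and 80.1 CPM. Rasgrp3, next to Ltbp1, and Lgals3bp, next to Timp2, were 2.16-fold and 3.01-fold higher at 24 h. On the other side of Adamtsl2, Fam163b ends 1398 bases from it on the opposite strand, at chr2:27110379-27142477. It had 1, 49 and 26 counts, ratios of 37.0 (6.34 to 1492) and 43.6 (7.16 to 1786), and stayed under 1 CPM in all 3 libraries.

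A window was found for 40 of the 52 members. Members without one include Adam9, Adamts10, Adamts4, Adamts6, Adamts7, Col1a1, Col2a1, Col9a3, Lamc1, Mmp19 and Serpinb1a. The windows were searched on both strands for 5 motifs: 3 bound by SMAD proteins, the factors that carry the TGF-beta signal, and 1 each of RUNX and AP-1 factors. The SMAD motif CAGACA was found in 10 of the 40 members' windows, 2 of the 11 higher at 24 h and 0 of the 3 lower, and in 21.0% of all 32851 windows of the same length. The GC-rich SMAD motif GGCGCC was found in 8 members' windows and 11.9% of all. The palindromic SMAD motif GTCTAGAC was found in 0 members' windows and 0.213% of all. The RUNX motif TGTGGT was found in 9 members' windows and 16.8% of all, and the AP-1 motif TGANTCA in 3 and in 7.81% of all. No 2 of these motifs overlapped in the printed windows. The printed Ltbp1 window holds the first motif at 2 places, on the other strand from the one printed, and the RUNX motif at 2. The Serpinb8 window holds the AP-1 motif at 2 places and the GC-rich SMAD motif at 1, and the windows of Adamtsl2, Col15a1 and Serpinb6b hold none of the 5. A match is a run of letters and no evidence of binding.

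Genes that act with the members were read from lists of partners. Over all 11138 genes, 7.15% were higher and 1.95% lower at 24 h, the shares to set beside each count here. In collagen modification and crosslinking, 0 of the 14 measured genes were higher and 2 were lower at 24 h: Tgm2, a crosslinking transglutaminase (71, 65 and 11 counts), and P4ha2, a prolyl hydroxylase subunit (3.33, 2.77 and 1.65 CPM). Colgalt1, at 184.6, 279.9 and 363.5 CPM, was 1.97-fold above control at 24 h, under the limit. Of the 14, 10 lay below control at 24 h and 4 above it. Other matrix proteins had 2 of 6 higher and none lower, namely Sparc, a collagen-binding protein, at 1.23, 1.73 and 5.03 CPM, and Nid1, which links laminin to collagen IV, at 2.30, 4.15 and 7.10 CPM. Of 14 matrix receptors, 2 were higher, the laminin receptor chain Itga6 (22.5, 79.4 and 62.1 CPM) and the collagen receptor Lair1 (0.514, 0.917 and 1.03 CPM). Lair1 had 25, 59 and 30 counts, so it passed the count limit only through treated libraries. At 24 h it was 2.01-fold higher (1.14 to 3.56), just past the size rule. The 2 lower receptors were the syndecan Sdc4 (28.8, 14.3 and 10.6 CPM) and the integrin chain Itgb3 (12.8, 8.86 and 6.31 CPM). Among 15 proteases and other targets of serpins, 3 were higher and 2 lower. Ctsw, a lymphocyte cathepsin, stood at 1.42, 8.07 and 20.9 CPM and was 14.7-fold higher at 24 h, and St14, matriptase, stood at 18.04, 44.0 and 66.0 CPM. Furin was the third, and those lower were Plaur, the urokinase receptor, at 11.2, 6.89 and 3.79 CPM and Ctsl, a lysosomal cathepsin, at 1.89, 1.54 and 0.758 CPM. Of 5 other protease inhibitors 1 was higher, the membrane MMP inhibitor Reck, at 4.75, 8.64 and 13.4 CPM. Colgalt1, Lair1, Furin and Ctsl were named after their values were seen.

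Summed levels of fibroblast, endothelial and myeloid markers were low in control and larger in the treated libraries. Of 11 fibroblast markers, 2 had 30 counts (Pdgfrb and Col1a1), and their list summed to 1.52, 3.67 and 5.69 CPM, with Fn1, Lum and Postn at 0 in all 3 libraries and Col1a2 at 0, 1 and 0 counts. Col1a1 is itself a member. Of 7 endothelial markers, 2 had 30 counts (Pecam1 and Cdh5), and the list summed to 3.54, 7.38 and 12.2 CPM, with Cldn5 at 0. Of 12 myeloid markers, 4 had 30 counts (Adgre1, Csf1r, Itgam and Cd68), and the list summed to 25.6, 34.6 and 59.97 CPM, with Elane, S100a8 and S100a9 at 0. Their part in the member differences was not tested, and in bulk RNA more cells of a type and more RNA per cell cannot be told apart. Markers of platelets summed to 0.864, 0.886 and 1.21 CPM, of T cells to 3.27, 1.94 and 1.93 CPM, and of epithelium to 1.46, 1.76 and 2.10 CPM. Most of the T cell sum was Cd4, at 2.90, 1.17 and 1.03 CPM. Cd3d, Cd3e, Cd3g and Cd8a lay above control at both times, with under 30 counts in every library.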

How the data were processed

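Poly(A) RNA from 3 CH12 libraries (control, 6 h and 24 h of TGFb) was sequenced for 50 cycles, per the labels' protocols. Tools listed in the submitters' processing notes are CASAVA 1.8.2, STAR, RSEM and bedtools, with mm10 as the build. Strand setting, annotation and other versions were not given in the sources used here. Per the file headers, the authors deposited expected counts from RSEM, in which reads matching more than 1 gene are split between them. These were rounded to whole numbers. The deposited TPM values, scaled by the authors to effective transcript length, were used for levels between genes and as an alternative.

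Scaling used edgeR 4.0.16 (R 4.3.3), whose TMM factors were 0.946, 1.0015 and 1.056 in the order control, 6 h, 24 h, so that 1 count equals 0.0206, 0.0155 and 0.0345 CPM. With 1 library per group no test was possible. A count of 0 was set to 3 counts in ratios. Ratio intervals were computed in Python 3.11.15 with scipy 1.17.1, and the procedure was tested on simulated data. The length trend was a lowess fit (fraction 0.3) of log2 ratio on log length, from statsmodels 0.14.6. Scaling by total counts, by the upper quartile, by DESeq2 1.42.0 size factors or by TPM was tried instead, as were other limits, and member subsets added after seeing the data.

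The named genes are members past the size rule, the 3 with most counts per role, the 10 highest by TPM in control, the 3 on each side of the count limit, 16 genes listed by name, and up to 3 per partner list. The values of 1 member are not reported here, though the counts and medians over members include it. Members, lists and rules were chosen with earlier results of these data known. All 52 members matched RefSeq entries, which give positions on GRCm38.p6, the assembly of mm10, and promoter windows.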

Additional observations from a re-analysis of the deposited data

Results flagged for a closer look

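Serpinb1a stood on opposite sides of control at the 2 times. Its log2 ratio was -0.14 at 6 h and 0.45 at 24 h, with counts of 1186 in control, 1426 at 6 h and 966 at 24 h, and both counting intervals leave out a ratio of 1. The difference between the times was not tested, since there is 1 library per group. The gene has reads shared with other genes, and on deposited TPM its log2 ratio at 6 h was 0.02.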

How the results depend on the processing

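No paired analysis was possible because each group has 1 library, and no library could be left out of a group. No alternative turned the sign of a median over members. At 1.5-fold, 4 members were lower at 24 h beside 11.4% of all genes, so the members' share then lies under that of all genes and not above it. Beside the 5 members higher at 6 h there were 9 with no minimum CPM (3.14% of all genes) and 8 at 1.5-fold (6.54%). With a minimum of 5 CPM, 1 rather than 2 members were lower at 6 h, 8 rather than 14 higher and 1 rather than 3 lower at 24 h, and 1 rather than 4 higher and 0 rather than 2 lower at 24 h against 6 h. Between the treated libraries, 1 was higher (1.8% of all genes) and 1 lower (0.26%) on deposited TPM, and 12 were higher (6.13%) and 4 lower (2.04%) at 1.5-fold. Other settings left each count within 1.5 times its value, from 12 to 16 members higher at 24 h apart from the 10 with 30 counts in control and the 19 at 1.5-fold. The members' median at 24 h ran from 0.35 to 0.72 over the settings, and was 0.29 over the 44 members with 30 counts in control. Total counts and TPM moved the median of all genes at 24 h to 0.15 and 0.26, so ratios there are relative to that shift. Single members changed sign under some scaling or length setting for 11 of 52 at 6 h, 9 at 24 h and 8 between the times, Lamc1 and Ltbp4 among them in each comparison. Members with few counts (Col1a1, Col2a1, Col27a1, Ltbp2, Lamb2) are limited by depth. How much cultures differ from each other could not be measured with 1 library per group.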
